A study of Mus musculus with 5 samples.

Results

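The H3K4 landscape of control-treated neonatal mouse cardiomyocytes, the contracting muscle cells of the heart, was described as the peaks in which both control H3K4 libraries reached a level of 1 CPM, the reads of a peak scaled to the reads of its library in peaks. These were 48093 of the 85275 peaks in the deposited table, and they carried 20679 of its 25017 gene symbols. Each peak is described by its level in CPM, its width from start to end, its level per kb of width, and the log2 ratio of CPM + 1 in the control H3K4 libraries to CPM + 1 in the negative control library. Among peaks with the same gene symbol, the one with the highest mean CPM of the control libraries stood for that gene and is called the gene peak.

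Methylation of lysine 4 of histone H3 is a mark of promoters and enhancers. Its trimethylated form sits at the start sites of active genes and of many promoters rich in CpG islands, and unusually wide domains of it are known from genes that define a cell's identity. Methyltransferases of the Kmt2 and Setd1 families add the mark, and demethylases such as those of the Kdm5 family remove it.

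The study used CUT&RUN, in which an antibody brings a nuclease to chromatin so that the DNA near its target is cut out and sequenced. Cardiomyocytes came from hearts of mice at postnatal day 1 per the isolation protocol, while the cell type labels carry a number that runs from P1 to P5 over the samples. The 2 control H3K4 libraries and the 1 negative control library all came from cells labelled as treated with Control-ShRNA-IL for 72 h, so they share the control agent and no untreated cells enter. The sources used here do not give the methylation state that was pulled down, the antibody of the negative control, the strain of the mice or the meaning of the suffix IL. The control libraries are called control 3 and control 4 after their columns in the table, whereas their sample titles number them 1 and 2. Nothing in the labels says that they came from separate cultures or animals, so their spread may be technical.

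The promoters of 5 genes are shown because they cover the range described below. Ubl5 had one of the highest ratios, Hand2 the highest level, Myh6 a wide peak level with the negative control, Nkx2-5 a wide peak below it, and Foxb2 one of the lowest ratios. Each line gives the 250 bases before the start of a RefSeq transcript (build GRCm38.p6, 5′ to 3′ on the strand of the gene), and capitals mark each CG dinucleotide. Where a gene had several promoters, the one with the most CG is printed. Peaks are given in the build of the submitters, GRCm39, so whether these bases lie under a peak was not determined.
Ubl5, chr9:20644553-20644802, plus strand: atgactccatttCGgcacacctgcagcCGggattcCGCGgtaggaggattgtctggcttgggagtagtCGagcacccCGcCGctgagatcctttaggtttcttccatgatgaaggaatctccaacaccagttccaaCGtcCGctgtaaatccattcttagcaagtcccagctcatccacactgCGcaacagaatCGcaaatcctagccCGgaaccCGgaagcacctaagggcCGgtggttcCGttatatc
Hand2, chr8:57320733-57320982, plus strand: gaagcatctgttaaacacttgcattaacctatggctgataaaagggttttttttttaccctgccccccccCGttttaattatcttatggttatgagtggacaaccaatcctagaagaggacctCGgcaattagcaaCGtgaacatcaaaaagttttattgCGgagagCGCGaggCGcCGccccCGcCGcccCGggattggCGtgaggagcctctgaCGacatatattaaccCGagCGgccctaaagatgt
Myh6, chr14:54966608-54966857, minus strand: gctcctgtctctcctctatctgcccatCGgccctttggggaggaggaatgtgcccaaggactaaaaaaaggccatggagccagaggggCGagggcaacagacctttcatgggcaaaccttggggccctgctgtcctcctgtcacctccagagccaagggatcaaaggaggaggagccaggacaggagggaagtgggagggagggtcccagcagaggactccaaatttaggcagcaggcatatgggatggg
Nkx2-5, chr17:26841566-26841815, minus strand: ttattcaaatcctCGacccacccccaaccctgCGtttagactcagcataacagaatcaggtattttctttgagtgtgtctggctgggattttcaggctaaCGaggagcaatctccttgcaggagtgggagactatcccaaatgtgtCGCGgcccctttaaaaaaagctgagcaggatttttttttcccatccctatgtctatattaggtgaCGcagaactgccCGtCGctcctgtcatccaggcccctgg
Foxb2, chr19:16873831-16874080, minus strand: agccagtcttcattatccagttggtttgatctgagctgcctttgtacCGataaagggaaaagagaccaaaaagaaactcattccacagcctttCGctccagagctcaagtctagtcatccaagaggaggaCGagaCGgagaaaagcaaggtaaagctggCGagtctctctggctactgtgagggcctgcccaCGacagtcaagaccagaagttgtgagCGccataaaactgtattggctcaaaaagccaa
The Ubl5 and Hand2 promoters each held 15 CG dinucleotides, that of Nkx2-5 held 8, that of Foxb2 held 7 and that of Myh6 held 2. The 2 letters CG were searched, which read the same on both strands. At least 1 CG was present in 92.1% of the 32851 RefSeq promoters of that length, with a median of 6.

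The libraries differed in depth. Reads in peaks numbered 18710132 in control 3, 19001373 in control 4 and 3784381 in the negative control. A single read was therefore worth 0.0534, 0.0526 and 0.264 CPM in the 3 libraries, and a level of 3 reads in the negative control was 0.793 CPM. The peaks described here held 96.0%, 96.8% and 86.3% of those reads. The control libraries followed each other closely, with Pearson's r of 0.990 across peaks on the log2(CPM + 1) scale, against 0.927 and 0.923 with the negative control. These are correlations across peaks, which are not independent. Of the 11740 peaks with a mean of 20 CPM or more, 0 differed 2-fold between the control libraries. Because each library was scaled to its own reads in peaks, a ratio compares how each library shares out its reads and not amounts of DNA.

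Most of the landscape did not stand above the negative control. A peak was called above it where both control libraries were at least 2-fold higher on the log2(CPM + 1) scale, and below it where both were at least 2-fold lower. By this rule 2886 peaks (6.0%) were above and 22192 peaks (46.1%) were below. The median log2 ratio over peaks was -1.08, and the ratios ran from -2.91 to 2.08. Over gene peaks, 2846 of 20679 (13.8%) were above and 5897 (28.5%) were below, with a median log2 ratio of -0.25. A limma fit with an intensity trend gave 9149 peaks (19.0%) higher and 36580 peaks (76.1%) lower at a Benjamini-Hochberg adjusted p of 0.05. With 1 negative control library, that fit assumes that it varies like the control libraries. For counting error this does not hold, since 1 read was worth 0.264 CPM in the negative control against 0.0534 and 0.0526 in the control libraries. The counts of that fit are therefore a description only. No other sample measures the spread of the negative control, so the counts by the fold rule carry no p-value.

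The scaling of the libraries moved these counts. With trimmed-mean (TMM) scaling the median log2 ratio over gene peaks was 0.90 in place of -0.25, and 10432 peaks were above and 137 below. With quantile normalization that median was 0.10, and 1375 peaks were above and 2023 below. Gene groups are therefore read against the median of all gene peaks.

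**Figure D1:**
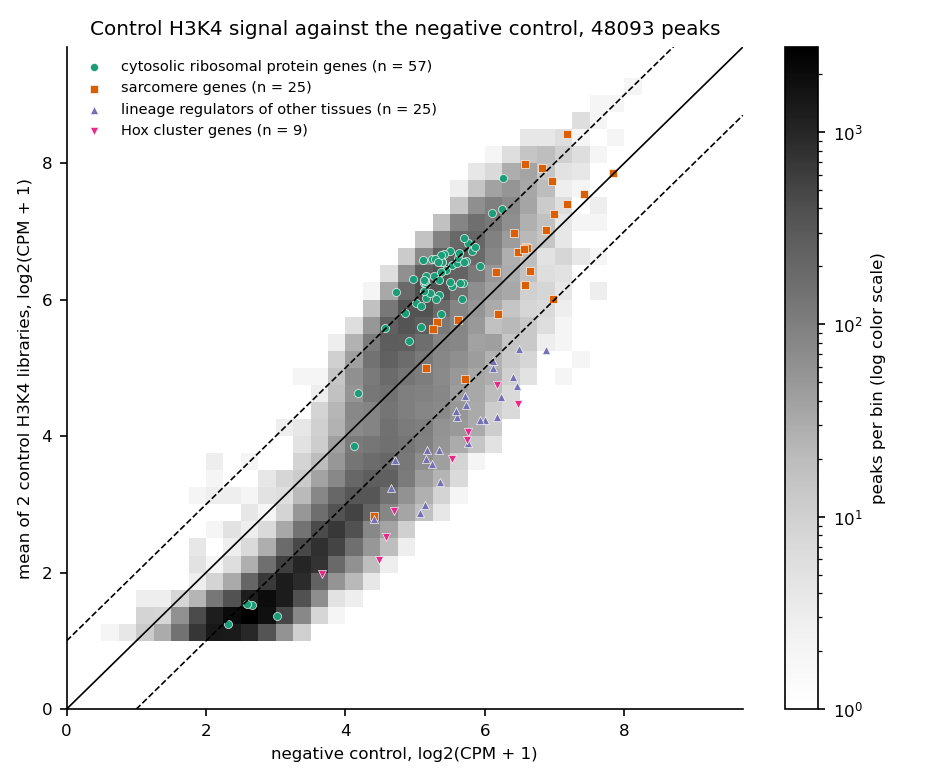
Level of 48093 peaks in the negative control (x axis) and as the mean of the 2 control H3K4 libraries (y axis), both as log2(CPM + 1), with gray bins shaded by the number of peaks and 4 gene groups as colored points. The solid line marks equal levels and the dashed lines a 2-fold difference. The peaks run from below the lower dashed line at low levels to above the upper dashed line at high levels. Below the lower line lie 9 of 9 Hox genes, and 28.5% of all gene peaks were called below.

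On the scale of the deposited CPM, the share of peaks above the negative control was higher in the wider classes. With quantile normalization this turned, and 0.34% of peaks of 5 kb or more were above, of 1375 above among all 48093 peaks. Of 16120 peaks under 500 bp, 1 was above, and of 11574 peaks between 500 bp and 1 kb, 5 were above. The median control levels of these 2 classes were 1.54 and 2.65 CPM. At such levels a pseudocount of 1 leaves little room for a call above, so their low shares are partly set by the rule. The share was 0.99% of 8584 peaks of 1 to 2 kb, 20.5% of 9750 peaks of 2 to 5 kb, 38.1% of 1659 peaks of 5 to 8 kb and 40.4% of 406 peaks of 8 kb or more. The steps into the classes of 2 to 5 kb and 5 to 8 kb were thus the large ones, and little was added beyond 8 kb.

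Per length, the negative control hardly changed with width while the control H3K4 signal did. The median negative control level was 13.9 CPM per kb in peaks under 500 bp and 10.2 CPM per kb in peaks of 8 kb or more. The median control H3K4 level was 4.68 CPM per kb in the narrowest class, 4.98 CPM per kb at 1 to 2 kb, 17.3 CPM per kb at 2 to 5 kb and 19.4 CPM per kb at 8 kb or more. The narrow peaks therefore lay below the negative control per length and the wide peaks above it. Peaks of 2 to 5 kb alone held 51.5% and 52.7% of the control reads and 35.0% of the negative control reads.

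**Figure D2:**
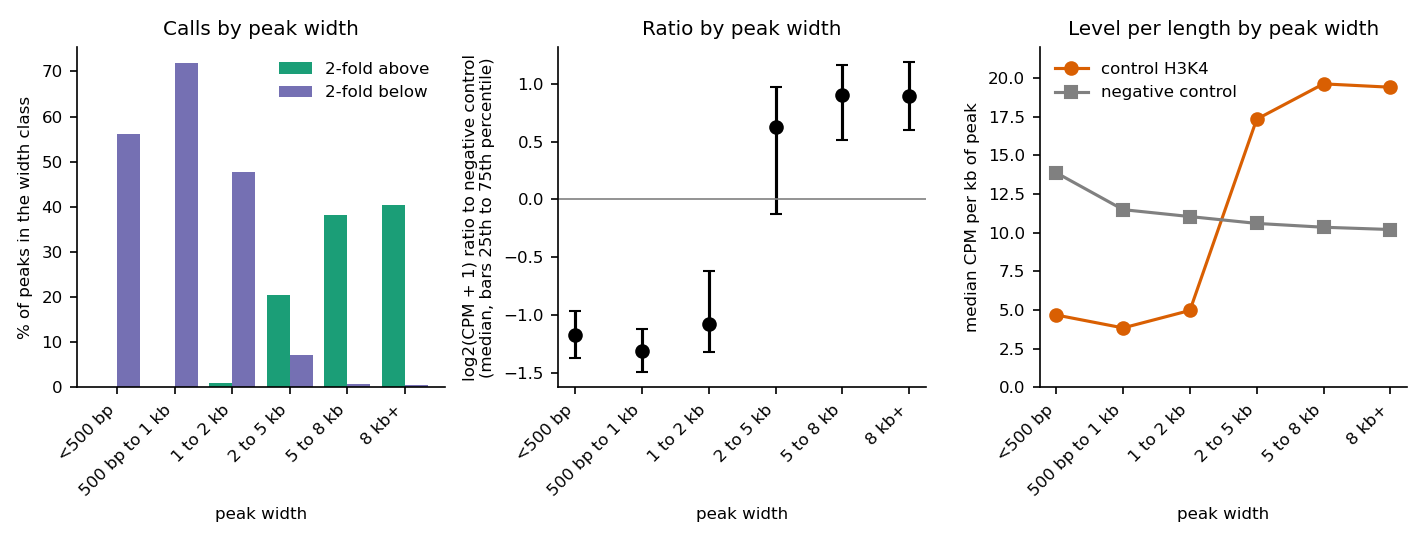
Peaks by width class (x axis): the percent called 2-fold above or below the negative control (left), the median log2(CPM + 1) ratio with bars from the 25th to the 75th percentile (middle), and the median level in CPM per kb of peak (right). The share above goes from 0.99% at 1 to 2 kb to 20.5% at 2 to 5 kb, where the control H3K4 level per kb passes that of the negative control.

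The level per length set the calls further apart. Of 4247 peaks with 20 to 30 CPM per kb, 54.1% were above the negative control, and of 390 peaks with 30 to 40 CPM per kb, 84.4% were. Among the 43 peaks with 40 CPM per kb or more, 15 were above and 21 were below. In that last class the median negative control level was 122 CPM per kb, against 11.7 CPM per kb in the class before it.

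The strongest gene peaks were led by developmental regulators of the heart. Hand2, a basic helix-loop-helix factor of heart development, had 702 CPM in control 3, 707 in control 4 and 314 in the negative control, at a peak of 27597 bp on chromosome 8 (57762950 to 57790547). Both control libraries were more than 2-fold above the negative control, with a mean log2 ratio of 1.17. Gata4, a zinc finger factor that heart muscle genes depend on, had 583, 569 and 278 CPM over 25684 bp and a log2 ratio of 1.05. Gata6, its close relative in the heart, had 514, 506 and 222 CPM over 21194 bp and a log2 ratio of 1.20. Among the 10 highest, the nuclear factor gene Nfib, Tnrc18, Arhgef17, the protocadherin gene Pcdh7 and the homeobox gene Meis2 were also called above. Smad7, an inhibitor of TGF beta signaling, had 526, 514 and 288 CPM and fell short of 2-fold, with a log2 ratio of 0.85. Bulk libraries cannot tell fewer marked cells from less mark per cell.

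The widest gene peaks were not those with the highest ratios. Qk, which encodes an RNA-binding splicing regulator, had the widest peak of the named genes at 40924 bp. Its level was 466 CPM in control 3, 441 in control 4 and 389 in the negative control, a log2 ratio of 0.22. The Qk peak thus ranked 8 by level, 1 by width and 8794 by ratio. After Qk came Smad7 (30186 bp), Hand2, Gata4, the transcriptional cofactor gene Lbh (22216 bp), Gata6, Nfib, Aopep (19533 bp), the long noncoding RNA gene Neat1 (17958 bp) and Meis2 (17918 bp). Lbh had 363, 353 and 219 CPM and a log2 ratio of 0.70, and Neat1 had 293, 285 and 193 CPM and a log2 ratio of 0.58, neither called above. Per kb, Qk stood at 11.1 CPM and Neat1 at 16.1 CPM, against 25.5 CPM for Hand2.

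The highest ratios came from narrower gene peaks than the highest levels did. Ptprg, a receptor tyrosine phosphatase gene, had 263 CPM in control 3, 288 in control 4 and 64.5 in the negative control over 5490 bp. The exact 95% Poisson interval of that negative control value was 56.6 to 73.1 CPM, and the log2 ratio was 2.08. Ubl5, a ubiquitin-like protein of pre-mRNA splicing, had 232, 238 and 56.5 CPM over 5398 bp and a log2 ratio of 2.04. On the log2(CPM + 1) scale, 4-fold or more in both control libraries was reached by these 2 gene peaks alone. Next came Tmem115, a Golgi membrane protein gene, with 200.05, 200.88 and 49.7 CPM and a log2 ratio of 1.99. The corepressor gene Tle5 (1.95), Tsc22d4 (1.92), Arhgef17 (1.91), Fam193b (1.90), the chondroitin synthesis gene Chpf2 (1.90), the copine gene Cpne1 (1.89) and the phosphatidylinositol transfer protein gene Pitpnc1 (1.88) completed the 10 highest log2 ratios. Of these, Arhgef17 was also among the 10 highest levels, with 492, 469 and 127 CPM over 12139 bp.

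Of the 500 gene peaks highest by level, 59.8% were among the 500 widest, and 28.2% were among the 500 with the highest ratio. The 500 widest and the 500 with the highest ratio shared 8.6%. The level per kb shared 55.2% of its 500 highest with the highest ratios and 7.6% with the widest. Level and width thus shared most of their highest genes, while width and ratio shared few, and level per kb stood closer to the ratio than width did. These overlaps are partly built in. A level counts reads over the whole peak and so grows with its width. The negative control level per kb differed little between most wide peaks, so the ratio follows the control level per kb.

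The highest levels per kb, among gene peaks of 1 kb or more, mixed peaks of both kinds. Cwc22, a spliceosome-associated gene, had 388 CPM in control 3, 407 in control 4 and 298 in the negative control over 2444 bp, or 163 CPM per kb against 122. Sfi1, a centrosomal protein gene, had 158 and 153 CPM against 513 CPM over 1590 bp, or 97.7 CPM per kb against 323. Both peaks were dense in the negative control as well, and that of Sfi1 was called below. Tap1 and Hdhd3, with log2 ratios of 0.99 and 0.70, stood at 23.3 and 26.4 CPM per kb in the negative control. Ptprg, Tmem115, Chpf2, the proto-oncogene Mycn, the galactosyltransferase gene B4galt1 and Ubl5 stood between 10.5 and 16.6 CPM per kb in the negative control, and all 6 were above.

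The lowest ratios, among gene peaks with a mean of 5 CPM or more, lay at narrow peaks that were dense in the negative control. Vmn1r2, a vomeronasal receptor gene, had 33.0 CPM in control 3, 33.2 in control 4 and 200.03 in the negative control over 1501 bp, a log2 ratio of -2.56. Sox17, a factor of endoderm and endothelium, had 5.18, 6.84 and 33.3 CPM over 473 bp and a log2 ratio of -2.30. Foxb2, a forkhead factor gene, had 9.41, 8.16 and 45.4 CPM over 629 bp and a log2 ratio of -2.25. The other members of the 10 lowest were Tbx1, a T-box factor gene of pharyngeal and outflow tract development, the chemokine-like receptor gene Cmklr1, the pseudogene Pisd-ps1, the synaptic scaffold gene Shank2, Nell2, the ammonium transporter gene Rhbg and the AP-2 factor gene Tfap2e. All 10 had over 35 CPM per kb in the negative control, against a median of 11.4 over gene peaks. They were chosen on a ratio that divides by the negative control level, so this density is partly built in.

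**Figure D3:**
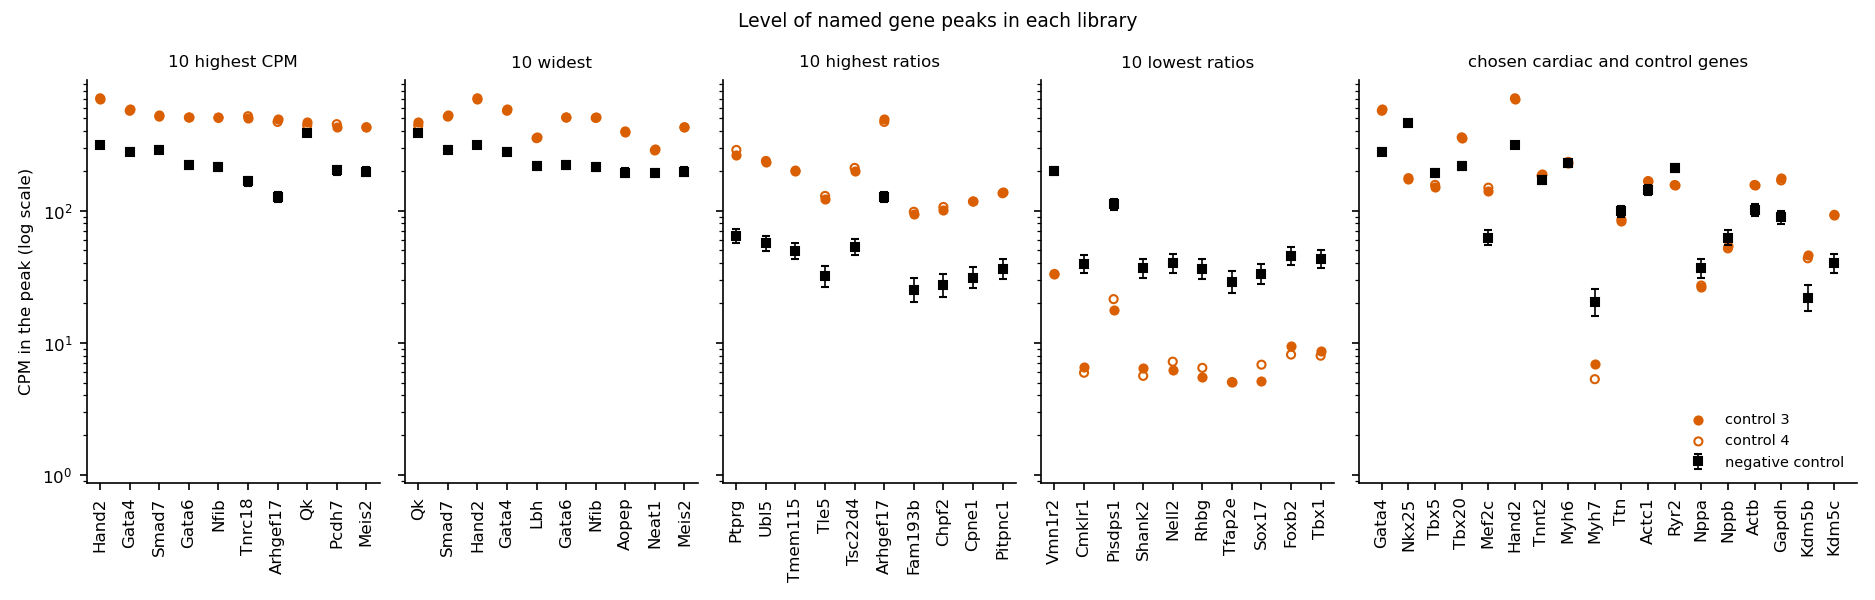
CPM (log axis) of named gene peaks in control 3 (filled orange circles), control 4 (open orange circles) and the negative control (black squares with exact 95% Poisson intervals), in 5 sets of genes along the x axes. The control libraries lie nearly on each other, far above the negative control for the 10 highest ratios (Ptprg 263 and 288 against 64.5 CPM), and far below it for the 10 lowest (Vmn1r2 33.0 and 33.2 against 200.03 CPM).

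Genes were then grouped into 27 lists of named genes and 18 families defined by symbol, and each group is given by its counts and its median beside those of all gene peaks. On the scale of the deposited CPM, the highest median was that of chromatin modifier genes. With quantile normalization it was 0.39. The medians of mitochondrial ribosomal protein (0.68), zinc finger protein (0.64), clustered protocadherin (0.51) and proteasome (0.47) genes were then higher. The medians of the chromatin modifier, translation, glycolysis, ribosomal, splicing and oxidative phosphorylation groups lay above that of all gene peaks in each of 14 settings. The smallest margin was 0.059 for splicing and 0.14 for translation and glycolysis. Of 28 chromatin modifier genes, 15 were above and 0 below, against 13.8% and 28.5% of all gene peaks. Their median was 1.07 against -0.25 for all gene peaks and 0.73 for gene peaks of 2 to 5 kb. Kmt2d, a methyltransferase of H3K4, had 255, 242 and 68.7 CPM and a log2 ratio of 1.84, and its relative Kmt2a had 177, 186 and 66.3 CPM and 1.44. Setd1b, another methyltransferase of H3K4, had only a peak of 576 bp with 3.05, 1.37 and 6.34 CPM.

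Among the H3K4 demethylases, Kdm5b, the gene the study knocked down in other samples, had 46.3 CPM in control 3, 43.6 in control 4 and 21.9 in the negative control over 2110 bp. The log2 ratio was 1.04 for control 3 and 0.96 for control 4, so it was not called. Kdm5c, its relative on chromosome X, had 92.8, 93.0 and 39.9 CPM over 4052 bp, a log2 ratio of 1.20, and was above.

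Translation, splicing and energy genes followed, with 13.8% of all gene peaks above and 28.5% below for comparison. Wide gene peaks had larger shares above, 23.6% at 2 to 5 kb and 40.1% at 5 to 8 kb, with median log2 ratios of 0.73 and 0.93. Of 16 translation initiation and elongation factor genes, 8 were above with a median log2 ratio of 1.01, and Eif3b, a subunit of initiation factor 3, had 145, 149 and 54.2 CPM. Of 16 glycolytic enzyme genes, 8 were above with a median of 0.99. Pgam1, which encodes phosphoglycerate mutase, led them with 140, 139 and 42.0 CPM and a log2 ratio of 1.71, while Hk1, a hexokinase gene, had 13.2, 16.1 and 21.1 CPM. Of 57 cytosolic ribosomal protein genes, 23 were above and 3 below, with a median of 0.98. Of 25 splicing factor genes, 10 were above with a median of 0.96, and of 70 oxidative phosphorylation subunit genes, 21 were above and 3 below with a median of 0.92. Splicing factor peaks had a median width of 5176 bp, and their share above was near that of gene peaks of 5 to 8 kb. Fatty acid oxidation (17 genes) and the tricarboxylic acid cycle (16 genes) both had a median of 0.71, at median widths of 3286 and 3999 bp. That was near the median of gene peaks of 2 to 5 kb.

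Low members of these groups differed in width. Eif5, an initiation factor, had 94.4, 96.5 and 73.5 CPM over 6917 bp and a log2 ratio of 0.37, and the splicing factor gene Srsf5 had 60.1, 62.9 and 49.1 CPM over 5176 bp and 0.32. The ribosomal protein gene Rpl13 had 1.66, 1.47 and 7.13 CPM over 577 bp, against 214, 226 and 75.3 CPM over 8351 bp for Rpl35. Among fatty acid oxidation genes, Hadha, a subunit of the mitochondrial trifunctional protein, had 4.06, 5.11 and 8.46 CPM over 835 bp, while its partner Hadhb had 130.0, 137 and 52.1 CPM over 4641 bp. Each peak carries 1 gene symbol, so a peak over neighboring genes counts for the named gene alone, and the sources used here do not give the rule that names it.

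Signaling and cell cycle groups spread over a wider range. Of 23 immediate-early genes, 11 were above and 2 below, against 13.8% and 28.5% of all gene peaks. Their median log2 ratio was 0.98. Their median width was 6012 bp, and 40.1% of gene peaks of 5 to 8 kb were above. The proto-oncogene Myc had 249, 258 and 79.3 CPM and a log2 ratio of 1.67, while the phosphatase gene Dusp1 had 6.52, 4.16 and 18.5 CPM. The median over 24 genes of the Notch, BMP and TGF beta pathways was 0.77, with Tgfb1, the ligand, at 159, 163 and 51.5 CPM and Smad6, an inhibitor, at 332, 340 and 114 CPM. Medians were 0.68 for 23 genes of G1/S and replication and 0.30 for 22 genes of G2/M and mitosis. Of the G2/M group only Kif11, a spindle motor gene, was above, at 79.9, 90.5 and 38.3 CPM. The G2/M median lay 0.55 above that of all gene peaks and turned to 0.23 below it with quantile normalization.

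**Figure D4:**
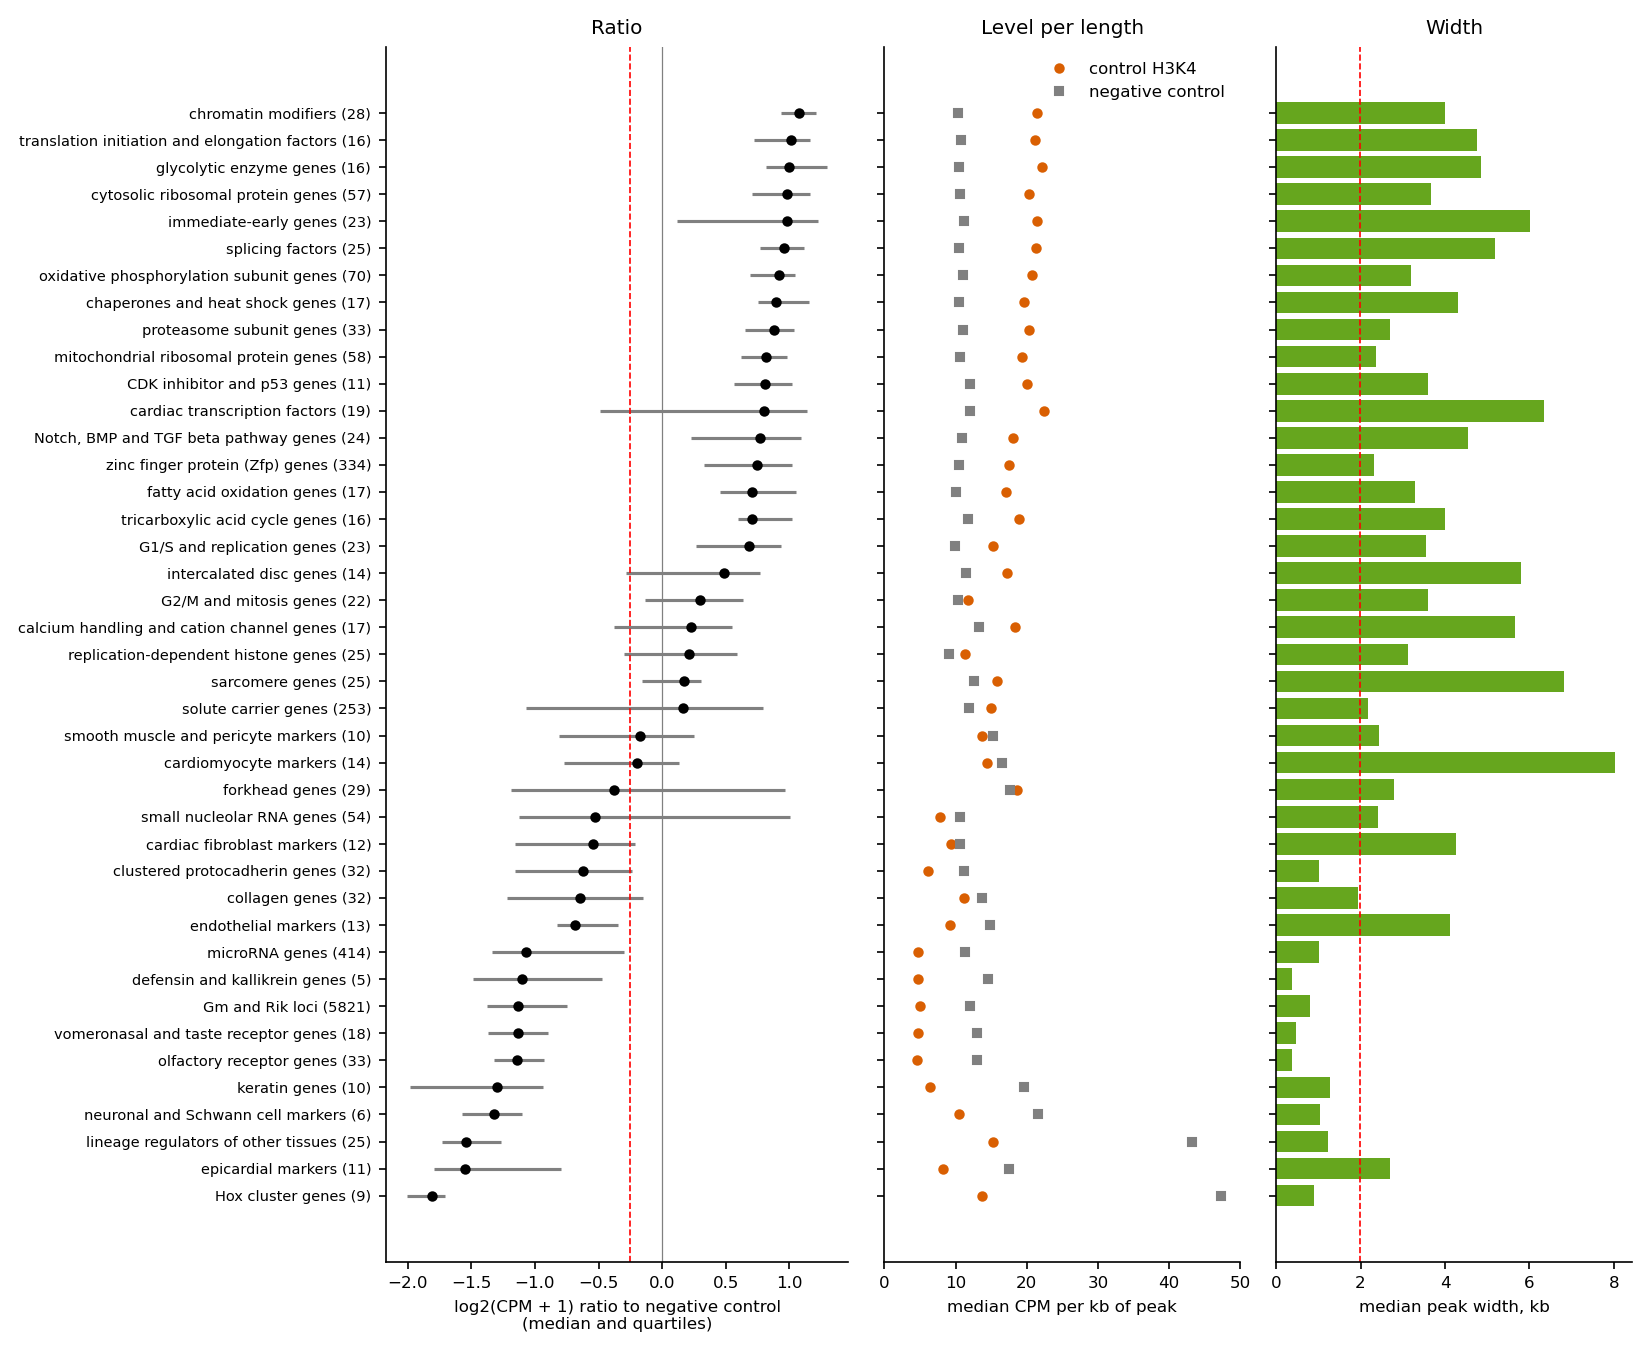
Gene groups with at least 5 members (numbers in brackets), ordered by the median log2(CPM + 1) ratio to the negative control with bars from the 25th to the 75th percentile (left), with their median level in CPM per kb (middle) and their median peak width in kb (right). Red dashed lines mark the medians of all gene peaks; control H3K4 levels per kb are similar for Hox genes (13.6) and sarcomere genes (15.8), while the negative control is at 47.3 and 12.6 CPM per kb.

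Heart muscle genes carried the widest peaks without the highest ratios. Of 25 sarcomere genes, 17 had a gene peak of 5 kb or more (9.45% of all gene peaks did), with a median width of 6829 bp against 1983 bp. The median log2 ratio was 0.17. Of the 25, 3 were above and 1 below, against 13.8% and 28.5% of all gene peaks, so the share above was near that of all gene peaks. These 3 were Cryab, a small heat shock protein of the Z-disc, with 256, 249 and 94.1 CPM and a log2 ratio of 1.41, Tpm1, a tropomyosin, with 342, 341 and 144 CPM and 1.24, and Tnnc1, cardiac troponin C, with 243, 241 and 112 CPM and 1.11. The 1 below was Myh7, the slow myosin heavy chain, whose highest peak had 6.95, 5.32 and 20.3 CPM over 841 bp.

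Several contractile genes were near the level of the negative control on the scale of the deposited CPM. Myh6, the fast myosin heavy chain of the heart, had 228 CPM in control 3, 234 in control 4 and 229 in the negative control over 11641 bp on chromosome 14 (55197771 to 55209412), a log2 ratio of 0.01. Tnnt2, cardiac troponin T, had 189, 184 and 171 CPM over 14421 bp and a log2 ratio of 0.13. Actc1, cardiac actin, had 169, 167 and 144 CPM over 11429 bp and 0.22. Ttn, the giant spring protein of the sarcomere, had 83.0, 85.6 and 98.8 CPM over 8074 bp and -0.23. For Myh6 the control values lay inside the exact 95% Poisson interval of the negative control, 214 to 244 CPM. Sarcomere peaks of 5 kb or more had a median log2 ratio of 0.22, against 0.93 for all gene peaks of 5 to 8 kb. At 5 kb or more the median was 0.28 for calcium handling and cation channel genes, 0.61 for intercalated disc genes, 0.81 for splicing factors and 1.20 for chromatin modifiers.

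Calcium and junction genes gave a mixed picture. Among 17 genes of calcium handling and cation channels the median log2 ratio was 0.23. Jph2, which links the cell membrane to the calcium store, had 295, 301 and 127 CPM and a log2 ratio of 1.23, whereas Ryr2, the calcium release channel, had 155, 156 and 209 CPM and -0.42. Among 14 intercalated disc genes the median was 0.49, led by Ctnnb1 (beta-catenin) at 131, 132 and 52.3 CPM and Cdh2 (N-cadherin) at 274, 279 and 124 CPM. The natriuretic peptide genes Nppa and Nppb, both stress markers of heart muscle, had log2 ratios of -0.44 and -0.23. Medians of the sarcomere, calcium and intercalated disc groups lay above that of all gene peaks as reported and below it with quantile normalization, by 0.73, 0.71 and 0.42.

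Cardiac transcription factor genes ranged widely. Of 19 with a peak, 14 had a gene peak of 5 kb or more, 7 were above (13.8% of all gene peaks) and 4 were below (28.5%), with a median log2 ratio of 0.80. The group had the highest median level per kb of all groups, 22.4 CPM per kb. Above were Zfpm2, a Gata cofactor (174, 179 and 71.9 CPM), Tead1, a DNA-binding factor of the Hippo pathway (141, 144 and 58.4 CPM), Mef2c (140, 149 and 62.6 CPM) and the Hand2, Gata4, Gata6 and Meis2 genes given above. Tbx20 had 357, 358 and 217 CPM over 16847 bp and a log2 ratio of 0.72, and Tbx5 had 151, 157 and 192 CPM over 5939 bp and -0.32.

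Nkx2-5, a homeobox factor of the cardiac lineage, went the other way. It had 173 CPM in control 3, 176 in control 4 and 460.05 in the negative control, at a peak of 10154 bp on chromosome 17 (27055063 to 27065217). Both control libraries were more than 2-fold below the negative control, and the log2 ratio was -1.39. With TMM scaling it was -0.18 and no longer 2-fold below, and with quantile normalization -1.80. Per kb the control H3K4 level was 17.2 CPM, against a median of 19.4 for peaks of 8 kb or more, while the negative control level was 45.3 CPM, against 11.4 at Hand2 and 10.8 at Gata4. Irx4, a homeobox gene of the ventricle, had 87.1, 89.7 and 204 CPM and a log2 ratio of -1.20, which turned to 0.014 with TMM scaling. Isl1 and Prdm16, the other two below, had peaks of 278 bp and 304 bp.

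Nkx2-5 was 1 of 9 gene peaks of 5 kb or more that were called below, of 1955 such peaks. The others were Wt1, the Wilms tumor factor of the epicardium (96.7, 91.8 and 323 CPM over 8129 bp), Ebf2, Gata2, Glipr1, Klhl4, Myl1, Prelp and Ptprb, named here after their values were seen. With TMM scaling Gata2 and Prelp turned to log2 ratios of 0.13 and 0.099. Wt1, Ebf2, Nkx2-5 and Gata2 had 37.4 to 45.3 CPM per kb in the negative control. The other five had 9.08 to 15.7 CPM per kb there and a control level of 3.49 to 6.72 CPM per kb.

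Low ratios of these 2 kinds recurred across gene groups. Olfactory receptor genes, which serve the nose, had a median log2 ratio of -1.14 over 33 gene peaks, with 4.55 CPM per kb in the control libraries against 13.0 in the negative control. These were 33 of the 212 such symbols in the table, and their median width was 365 bp. All gene peaks under 500 bp had a median log2 ratio of -1.21, with 4.88 against 14.7 CPM per kb. The share below was 57.6% for olfactory receptor genes and 59.8% for gene peaks under 500 bp, so the group was close to others of its width. The clustered Hox genes, which pattern the body axis, had a median of -1.81. Of them 9 of 9 were below, against 28.5% of all gene peaks. Their median width was 898 bp, and 72.7% of gene peaks of 500 bp to 1 kb were below. The Hox control level was 13.6 CPM per kb, above the median of 12.3 for all gene peaks, while the Hox negative control level was 47.3 CPM per kb. Hoxb4 had 21.4, 20.8 and 88.0 CPM over 1932 bp, and Hoxa5 had 16.3, 14.9 and 53.1 CPM over 1111 bp.

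Lineage regulators of other tissues, a list of homeobox, paired box and related factor genes, resembled the Hox genes. Of 25, 23 were below and 0 above, against 28.5% and 13.8% of all gene peaks. Their median width was 1239 bp, and 35.2% of gene peaks of 1 to 2 kb were below. The median log2 ratio was -1.54, with 15.2 CPM per kb in the control libraries against 43.2 in the negative control. Barhl1, a factor of the nervous system, had 5.72, 6.89 and 32.5 CPM, and Nkx2-2, a factor of the neural tube and pancreas, had 8.07, 5.84 and 34.4 CPM. Within the forkhead family, Foxo3, Foxp1 and Foxo1 had log2 ratios of 1.78, 1.42 and 1.38, whereas Foxb2 and Foxd1, which act in embryonic patterning, had -2.25 and -1.81. The Hox and lineage medians stayed below those of all gene peaks under TMM scaling and quantile normalization.

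A cutoff of 30 CPM per kb in the negative control, set after the values were seen, marked 1610 peaks. They were chosen on the level that the ratio divides by, so their low ratios (1407 below) are no finding. They carried 1392 of 20679 gene symbols (6.73%). Of the 34 Hox and lineage regulator genes, 33 had such a peak, Sox3 being the exception with 12.6, 13.3 and 35.1 CPM over 1321 bp. The forkhead family had 11 such genes of 29 and the cardiac transcription factors 5 of 19. Each of the cytosolic ribosomal, oxidative phosphorylation, proteasome and chromatin modifier groups had 0. What these peaks contain in the negative control was not tested.

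No group of cell type markers had a median above the negative control on the scale of the deposited CPM. All 14 cardiomyocyte markers had a peak, with the largest median width of any group, 8032 bp, and a median log2 ratio of -0.19. With TMM scaling the medians of the fibroblast, endothelial and epicardial markers were 0.66, 0.49 and -0.38, and that of the cardiomyocyte markers was 0.995. With quantile normalization they were -0.70, -1.24 and -1.47, against -0.76 for the cardiomyocyte markers. The summed level of the cardiomyocyte markers was 1490 CPM in control 3, 1510 in control 4 and 1880 in the negative control. Of the 14, 6 had a ratio over 0 and 0 were above, against 13.8% of all gene peaks above. On the scale of the deposited CPM, fibroblast markers (12 genes, median -0.54), endothelial markers (13 genes, -0.68) and epicardial markers (11 genes, -1.55) lay lower. With quantile normalization the fibroblast markers did not. Their sums were 560.1, 531 and 715 CPM, then 522, 501 and 760.0 CPM, then 478, 463 and 1050 CPM in the 3 libraries. Smooth muscle and pericyte markers (10 genes, median -0.18) did not lie lower than the cardiomyocyte markers. Of them 1 was above and 2 were below, against 13.8% and 28.5% of all gene peaks. Their median was 1.003 with TMM scaling and -0.60 with quantile normalization, again not lower than that of the cardiomyocyte markers. Their sums were 506, 487 and 441 CPM. Markers of blood, liver and skeletal muscle mostly had no peak that met the rule, with 4 of 14 macrophage and leukocyte markers, 2 of 9 erythroid markers, 4 of 10 hepatocyte markers and 3 of 12 skeletal muscle markers present. Ptprc, Lyz2, Itgam, Alb, Myod1 and Pax7 were among those without one. The part of other cell types in the landscape was not tested.

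Promoter sequence moved weakly with the ratio. Of 8876 named genes with a gene peak of 2 kb or more, 7143 (80.5%) matched a RefSeq promoter, and the count of CG dinucleotides was taken from the 250 bases before the start. With 0 to 4 CG, 14.5% of 420 genes were above and the median log2 ratio was 0.27. With 10 to 14 CG, 24.3% of 1271 genes were above, and with 25 or more, 36.7% of 1889 genes were above and the median was 0.92. Over the matched genes, Pearson's r of the CG count and the ratio was 0.243. The median peak width was 3181 bp with 0 to 4 CG and 3940 bp with 25 or more, so width was not held equal. The negative control level per kb stayed between 10.5 and 10.8 CPM over these classes, while the control level went from 14.2 to 20.4 CPM per kb. At least 10 CG stood in 89.3% of promoters of genes above, 80.1% of those between and 44.6% of those below, against 82.1% of all matched genes. Each gene was counted by its promoter with the most CG, and 1603 of the 7143 genes had 2 or more promoters. Over all RefSeq promoters, each counted singly, the share was 37.8%, which is not a like comparison.

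Short motifs were searched on both strands in the same 250 bases. For each gene the promoter with the most CG was searched, while the share over all promoters counts each promoter singly. TATAAA was found in 4.38% of promoters of genes above, 5.85% between and 12.3% below, against 5.54% of all matched genes and 12.4% of all promoters. CCGGAA was found in 27.7%, 21.5% and 10.8%, against 23.1% and 12.03%. GGGCGG was found in 68.6%, 65.0% and 47.7%, against 65.8% and 32.7%. CCAAT was found in 30.6%, 37.1% and 36.9%, against 35.2% and 33.8%. GGGCGG and CCGGAA each hold 1 CG and so overlap with the CG count. Among the groups, cardiomyocyte markers had a median of 4 CG and sarcomere genes 4.5, while splicing factors had 22 and glycolytic enzymes 15. Groups with lower ratios could also be rich in CG, as G2/M genes had a median of 18.5 and neuronal and Schwann cell markers, with a median log2 ratio of -1.32, had 21. As shown above, the Myh6 promoter held 2.

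**Figure D5:**
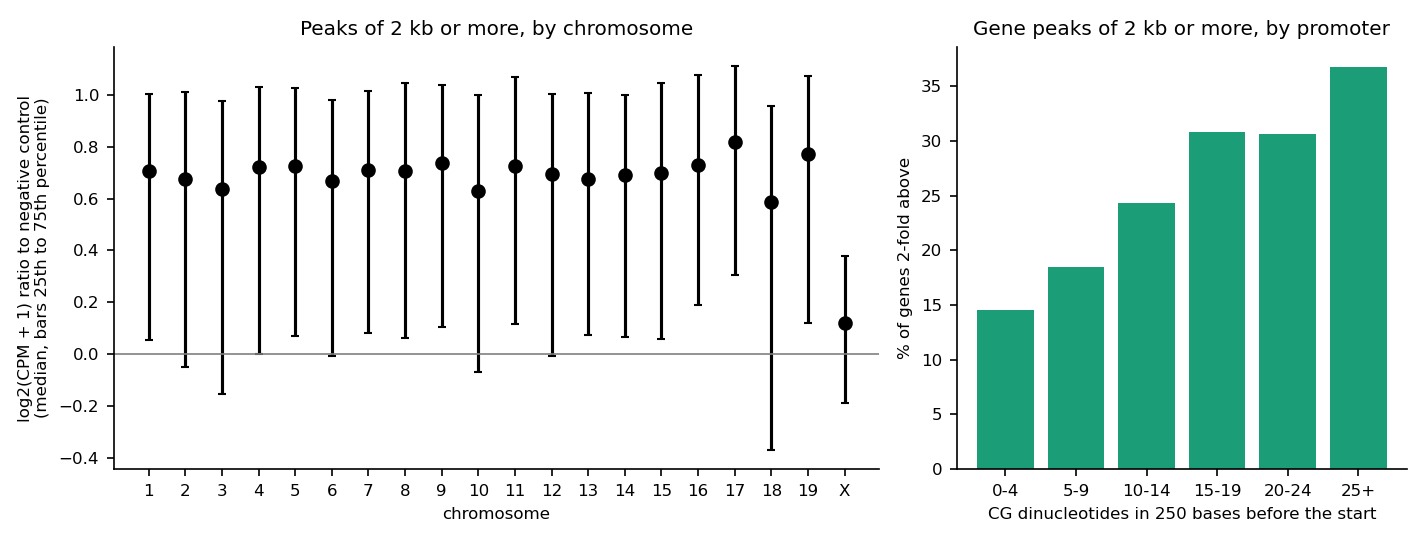
Left, the median log2(CPM + 1) ratio of peaks of 2 kb or more on each chromosome, with bars from the 25th to the 75th percentile. Right, the percent of genes called above the negative control by the number of CG dinucleotides in the 250 bases before the start; chromosome X lies lowest at 0.12, and the share above goes from 14.5% to 36.7%.

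Chromosome X stood apart from the autosomes. Among peaks of 2 kb or more, 5 of 328 on X were above (1.52%) against 2790 of 11487 on the autosomes (24.3%). Single autosomes ranged from 19.1% on chromosome 18 to 31.4% on chromosome 17. The median log2 ratio was 0.12 on X and 0.70 on the autosomes. The median control level was 12.9 CPM per kb on X and 18.0 on the autosomes, while the negative control was at 11.7 and 10.5 CPM per kb. The share below was also smaller on X, 2.13% against 6.23%. Over peaks of all widths the median log2 ratio was higher on X, -0.59 against -1.09, at median widths of 1526 and 774 bp. The sources used here do not give the sex of the mice.

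The 5 wide X peaks above, named after their values were seen, were those of Kdm6a, Mamld1, Ddx3x, Kdm5c and Hmgn5. Kdm6a, a demethylase of lysine 27 of histone H3, had 127 CPM in control 3, 146 in control 4 and 49.4 in the negative control, a log2 ratio of 1.44. Ddx3x, an RNA helicase, had 111, 119 and 53.4 CPM and 1.09, and Mamld1 had 123, 131 and 58.4 CPM and 1.11. Kdm6a, Kdm5c and Ddx3x are known to escape X inactivation in mice. Eif2s3x, another such gene, had 56.0, 55.2 and 27.5 CPM and a log2 ratio of 0.99. Xist, the RNA that silences an X, had 50.03, 53.3 and 40.7 CPM and 0.34.

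Nearly all peaks above the negative control were the highest peak of their gene symbol. Of 27414 other peaks, 40 were above (0.146%). That split is partly built in, because the highest peak was chosen by its control level. Across peaks, level and ratio had Pearson's r of 0.855. The other peaks had a median of 2.02 CPM and 520 bp, against 24.4 CPM and 1983 bp for the highest ones. For 10349 symbols there was a single peak, and for symbols with more, a median of 81.6% of the signal lay in the highest one. A pair of peaks was above for 21 symbols. Abl1, a tyrosine kinase gene, had one peak of 5125 bp with 147, 135 and 53.6 CPM and another of 4395 bp with 132, 124 and 53.1 CPM. Foxp1, a forkhead factor of the heart and brain, had peaks of 6058 bp and 6273 bp on chromosome 6 that began at 99495630 and 99000658, with 170, 177 and 63.9 CPM and 157, 165 and 63.9 CPM. Rara, a retinoic acid receptor gene, had peaks of 10227 bp and 7234 bp with log2 ratios of 1.28 and 1.36.

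Peaks near the entry level of 1 CPM were narrow and low. The 3079 peaks just inside it (1 to 1.1 CPM in the lower library) had a median log2 ratio of -1.18, and the 5049 just outside (0.9 to 1 CPM) had -1.19. The 37182 peaks outside the rule had a median width of 266 bp, and 0 of them reached 1 kb. With a pseudocount of 1, a library under 1 CPM cannot reach 2-fold above the negative control, so no call above was possible there.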

How the data were processed

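The comparison used 2 control H3K4 CUT&RUN libraries and 1 negative control library. The authors deposited CPM for each peak in each library, in a table where the peak name carries the position and a gene symbol. The submitters' processing notes name Trim Galore, which trims reads, and the build GRCm39. The sources used here do not say how reads were aligned, duplicates removed, or peaks called, merged and named. Of the 5 value columns, 2 (knockdown libraries) were not used. The deposited CPM were whole multiples of a fixed step, so whole reads were recovered for 100% of values within a tolerance of 1e-06. The table as used here has 2 emptied lines, whose reads stayed in the totals.

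Peaks with 1 CPM or more in both control libraries were kept. Log2 ratios used CPM with a pseudocount of 1, which understates changes at low peaks, and are means of the ratios of both control libraries. Widths are end minus start. The call needs a 2-fold difference in both control libraries. Intervals of the negative control are exact 95% Poisson intervals of its reads. Reads are not independent molecules, so these intervals and the 3-read floor cover counting error only. A limma fit with an intensity trend, run on log2(CPM + 1) of both control libraries against the negative control, and TMM factors from edgeR, applied to the recovered reads, served as alternatives. On simulated reads for 48093 peaks, the fold rule recovered 198 of 200 peaks changed 4-fold and 175 of 200 changed 3-fold, and called 190 of 47693 unchanged peaks. The simulation assumed a spread between libraries, also for the negative control, whose spread no sample measures. Unchanged peaks were set level with the negative control, whereas the real median log2 ratio over peaks was -1.08. Changes were planted only in peaks of 5 CPM or more. These counts therefore give no error rate for these data.

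The members, the gene lists and the tests were chosen with earlier results of these data known. The named genes are the 10 highest by level, level per kb (peaks of 1 kb or more), width and ratio, the 10 lowest by ratio (ratios from a mean of 5 CPM), the 2 to 4 highest and lowest of each group, and a set of 18 cardiac, housekeeping and Kdm5 genes. Unnamed loci were left out of these rankings. Symbols were matched with hyphens removed. Promoters came from RefSeq, GRCm38.p6, matched by symbol or synonym. Software was Python 3.11.15, numpy 2.4.6, pandas 2.3.3, scipy 1.17.1, matplotlib 3.10.9, R 4.3.3, limma 3.58.1 and edgeR 4.0.16.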

Additional observations from a re-analysis of the deposited data

How the results depend on the processing

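As reported, 2886 peaks and 2846 gene peaks were above, 22192 peaks were below, the median log2 ratio over peaks was -1.08, and 38.5% of peaks of 5 kb or more were above. A pseudocount of 0.5 gave a median of -1.21 and 39.3%, and one of 5 gave 2852 below, -0.59 and 34.6%. Without the 1 CPM filter 42058 were below and the median was -1.18; with a filter of 5 CPM, 3393 were below and the median turned to 0.18. TMM scaling gave 10432 above, 137 below, 9893 gene peaks above, a median of -0.12 and 92.2%. Quantile normalization gave 1375, 2023, 1280, 0.020 and 0.34%. Setting the median peak ratio to 0 gave 10147, 134, 9642, 0 and 90.9%, and setting that of peaks under 500 bp to 0 gave 10515, 73, 9931, 0.090 and 91.9%. A fold of 1.5 gave 6709 above, 33895 below and 6552 gene peaks; a fold of 4 gave 2, 205 and 2. The bound of the 95% interval of the negative control gave 1191, 4488 and 1181. The mean of both libraries, and limma with a 2-fold change, each gave 40.7%. Summing all peaks of a gene gave 1503 genes above. Leaving out control 3 or control 4 gave 3042 to 3430 above, 24837 to 27539 below, 2998 to 3383 gene peaks, medians of -1.10 to -1.02 and 40.3% to 40.9%. With TMM scaling Prelp, Gata2 and Irx4 turned to log2 ratios of 0.099, 0.13 and 0.014. An alternative chosen after seeing the data left out peaks of 30 or more CPM per kb in the negative control or starting within 3.5 Mb of a chromosome's start; it gave 2868 above and 20718 below. The widest peak of each gene in place of the highest gave 2787 above. Apart from the shifts built into each scaling, pseudocount, fold and filter, the cause was not tested. No paired analysis was possible because the negative control is a single library, so the groups share fewer than 2 replicate numbers. The single negative control and its 3784381 reads limit every ratio.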

Other observations

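Chromosome Y had 4 peaks that met the rule. Uty, a relative of Kdm6a, had 9.03 CPM in control 3, 10.1 in control 4 and 3.44 in the negative control, and Kdm5d, a relative of Kdm5c, had 7.96, 6.84 and 2.64 CPM. Both were above, with log2 ratios of 1.25 and 1.20. Their negative control values rested on 13 and 10 reads, with exact 95% Poisson intervals of 1.83 to 5.87 and 1.27 to 4.86 CPM. At the upper ends of these intervals neither would be called above. Eif2s3y, a translation initiation factor gene, had 7.48, 7.95 and 3.44 CPM and 0.97, and Uba1y had 2.99, 2.32 and 3.44 CPM and -0.29.

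Small RNA genes followed the peaks they were named for. Of 414 microRNA symbols the median log2 ratio was -1.07, yet Mir1932 had 300.0, 290 and 92.2 CPM over 10029 bp and Mir99b had 252, 232 and 77.2 CPM over 7539 bp. Of 54 small nucleolar RNA symbols, Snord42a had 210.2, 216 and 83.5 CPM and Snord17 had 1.82, 2.26 and 7.66 CPM.

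Among clustered protocadherin genes, Pcdhgc3 had 179, 182 and 62.9 CPM, while the median over 32 members was -0.62. Among 32 collagen genes, with a median of -0.65, Col4a1, a chain of basement membrane collagen, had 269, 269 and 105 CPM and 1.35. Within 334 zinc finger protein (Zfp) genes the median was 0.75.

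Several peaks named Sfi1 lay within 3.5 Mb of the start of chromosome 11. The highest of them had 158, 153 and 513 CPM over 1590 bp, and the next had 106, 93.9 and 475 CPM over 1719 bp.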
